A study of Homo sapiens with 24 samples.

Results

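Nascent transcription of 9 genes that move, deliver or bind copper was measured in a degron-tagged breast cancer cell line. The genes were chosen by name, with the response of ATP7B to dTAG-13 in view, and are ATP7A, ATP7B, SLC31A1, ATOX1, CCS, MTF1, MT1X, MT2A and COMMD1. They are 9 of 60605 genes in the count table, and 9 of 9 passed the filter on low counts that left 22326 genes to test. The assay was precision run-on sequencing (PRO-seq), which maps RNA polymerases that are engaged on a gene, so a value below is a level of transcription and not of stored mRNA or protein.

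The cells were T47D, a luminal breast cancer line, in which a degron tag had been inserted at the endogenous TRPS1 locus. TRPS1 is a GATA-type zinc finger repressor. The degrader dTAG-13 bridges the tag and a ubiquitin ligase, so that the tagged protein is destroyed. There were 3 clones (28, 35 and 39), 2 treatments and 4 replicates of each, which gives 6 groups of 4 and 24 libraries. Controls had 0.1% DMSO and treated cells 100 nM dTAG-13, each over 90 min. In every clone some copies of TRPS1 were knocked out and the TRPS1 protein that remained was the tagged form, in DMSO as well. The clones were grown from an earlier clone that had been through puromycin selection, so each is the progeny of a single cell and stands for itself and not for T47D at large. Libraries of untagged T47D cells given dTAG-13 were not analysed here, so an effect of the compound and an effect of losing TRPS1 cannot be told apart. The replicates were collected at different times of 1 day, with the DMSO and dTAG-13 dishes of a pair harvested at once, and which number came first is not stated. That a number names the same collection in both treatments was inferred from the numbering. Nothing says that replicates were separate cultures before that day, so p-values measure the spread between these dishes.

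Library totals ran from 3226718 to 9575803 reads, with a median of 5042122. TRPS1 transcription, which the degron does not target, was between 5183 and 8747 normalized read counts scaled to library size (CPM) in DMSO and between 6304 and 9296 CPM with dTAG-13. The luminal markers ESR1, PGR, GATA3, FOXA1, KRT8, KRT18, KRT19 and EPCAM summed to between 3606 and 5920 CPM in each library. The sums for basal, leukocyte, fibroblast and endothelial markers did not exceed 23.2 CPM in any library, and that for hepatocyte markers ran from 46.2 to 114 CPM, most of it SERPINA1. Of the luminal markers KRT19 was lower in treated cells, with a log2 difference of -0.13 (edgeR, adjusted p = 0.0346), and the other 7 did not pass.

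Copper is needed by a handful of enzymes and is toxic when free, so cells pass it from protein to protein. SLC31A1 (CTR1) takes it up at the plasma membrane, the chaperone ATOX1 hands it to the P-type ATPases ATP7A and ATP7B, and CCS loads it into the superoxide dismutase SOD1. ATP7A and ATP7B pump copper into the secretory pathway and, when copper is high, out of the cell. Mutations of ATP7A cause Menkes disease and mutations of ATP7B cause Wilson disease. COMMD1 takes part in the endosomal sorting of both pumps. MT1X and MT2A are metallothioneins, small cysteine-rich proteins that bind zinc and copper, and MTF1 is the zinc-sensing factor that switches them on through metal response elements.

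The stretches before the starts of 4 of the genes are shown because they differ in metal response elements, the sites that MTF1 is known to bind. The sequences are from RefSeq on GRCh38.p14, written 5′ to 3′ on the strand of the gene, and the capitals mark matches to TGCACNC or TGCGCNC on either strand. The stretches are chr16:56608334-56608583 (+) for MT2A, chr16:56682220-56682469 (+) for MT1X, chr13:52012133-52012382 (-) for ATP7B and chr11:66593064-66593152 (+) for CCS. Those of MT2A, MT1X and ATP7B end at the RefSeq start. For CCS only the bases between the GENCODE intervals of CCS and its neighbor CCDC87 are given, and they end 32 bases farther upstream.
MT2A: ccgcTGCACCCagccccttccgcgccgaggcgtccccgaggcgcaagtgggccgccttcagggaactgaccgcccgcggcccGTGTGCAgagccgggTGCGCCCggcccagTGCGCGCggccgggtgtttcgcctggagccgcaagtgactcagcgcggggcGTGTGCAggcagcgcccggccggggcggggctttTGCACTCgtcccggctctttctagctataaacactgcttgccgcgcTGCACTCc
MT1X: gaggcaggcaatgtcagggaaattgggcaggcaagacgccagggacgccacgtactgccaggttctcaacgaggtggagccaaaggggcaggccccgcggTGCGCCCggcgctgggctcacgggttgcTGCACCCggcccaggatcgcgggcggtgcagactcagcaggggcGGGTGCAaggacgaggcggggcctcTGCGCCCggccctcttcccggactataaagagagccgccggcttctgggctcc
CCS: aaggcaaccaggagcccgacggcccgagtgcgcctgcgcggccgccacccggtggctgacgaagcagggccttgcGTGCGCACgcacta
ATP7B: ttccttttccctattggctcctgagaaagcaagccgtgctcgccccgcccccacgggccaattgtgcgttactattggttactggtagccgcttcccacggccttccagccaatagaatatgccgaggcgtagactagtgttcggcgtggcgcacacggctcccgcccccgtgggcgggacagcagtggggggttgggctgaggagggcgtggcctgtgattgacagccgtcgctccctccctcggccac

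In the 250 bases before the RefSeq start MT2A had 7 matches and MT1X had 4. CCS and ATOX1 each had 2 matches, which overlap as a single word of 8 bases read on both strands, and COMMD1 had 1. The window of ATOX1 (chr5:151758632-151758881, -) lies before its RefSeq start, which is 13901 bases from the GENCODE start and inside the GENCODE interval of the gene. ATP7A, ATP7B, SLC31A1 and MTF1 had none. Of 35116 RefSeq promoter windows of this length, 24.8% held at least 1 match and 1.58% held 3 or more. None of the 9 windows held a GATA motif on either strand, searched as AGATAA and, separately, as AGATAG, with the further spellings TGATAA and, in the same way, TGATAG, which 22.3% of all windows did. A missing match says only that these letters are not in the window. Nor did any hold the nuclear receptor word AGGTCA, found in 12.1% of all windows.

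Levels between genes were compared per kilobase of the annotated gene (GENCODE v44 on hg38), over lengths from 914 to 258524 bases. The part of gene length and of the annotated start in the order below was not tested. Averaged over the 24 libraries, the short metallothionein gene MT2A (914 bases, chr16:56608584-56609497, +) had 5.3 ± 1.69 CPM per kilobase (SD, n = 24) and MT1X (1727 bases, chr16:56682470-56684196, +) had 3.02 ± 0.878. CCS (chr11:66593153-66606019, +) lay between them at 4.44 ± 0.629, and MT2A and CCS did not differ beyond their spread. ATOX1 (chr5:151742316-151772532, -) followed at 2.41 ± 0.229. MTF1 (chr1:37809574-37859592, -) at 0.899 ± 0.0649 and SLC31A1 (chr9:113221544-113264492, +) at 0.892 ± 0.101 could not be separated. ATP7B (chr13:51930436-52012125, -) had 0.607 ± 0.129, COMMD1 (chr2:61888724-62147247, +) had 0.322 ± 0.019 and ATP7A (chrX:77910690-78050395, +) was lowest at 0.127 ± 0.0153. The export pump ATP7B was thus transcribed at a higher level per kilobase than ATP7A in this line.

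The precision differs greatly among the genes. Reads per library ran from 144 to 634 for ATP7B and from 177 to 520 for CCS, but from 6 to 46 for MT2A and from 11 to 47 for MT1X. The coefficient of variation over the 24 libraries was 31.9% for MT2A and 29% for MT1X, and the smallest was 5.92%, for COMMD1. Of 11 metallothionein genes, only MT1F joined MT1X and MT2A past the filter on low counts, with a median of 8.5 reads per library. MT1A, MT1B, MT1E, MT1G, MT1H, MT1M, MT3 and MT4 had at most 3 reads in any library.

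Some of these genes share their interval with another. MT1X lies inside the long noncoding gene ENSG00000259827 on the same strand, whose CPM followed that of MT1X with Pearson r = 0.97 over 24 libraries, so the reads of these annotations cannot be told apart. All but the first bases of ATP7A lie inside the annotated interval of PGK1 on the same strand. The pseudogene C4orf46P2 also overlaps ATP7A on the same strand, with 794 reads in all 24 libraries beside 2232 for ATP7A. ATOX1 holds the long noncoding gene ENSG00000275765 on the same strand, with 1642 reads beside 9135 for ATOX1. It also overlaps G3BP1 and ATOX1-AS1 on the opposite strand, and SLC31A1 overlaps CDC26 on the opposite strand. Whether reads were counted by strand is not stated. ATP7B overlaps only FABP5P2, which had 1 read in all 24 libraries together, and it starts 266 bases from ALG11, which runs the other way.

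**Figure D1:**
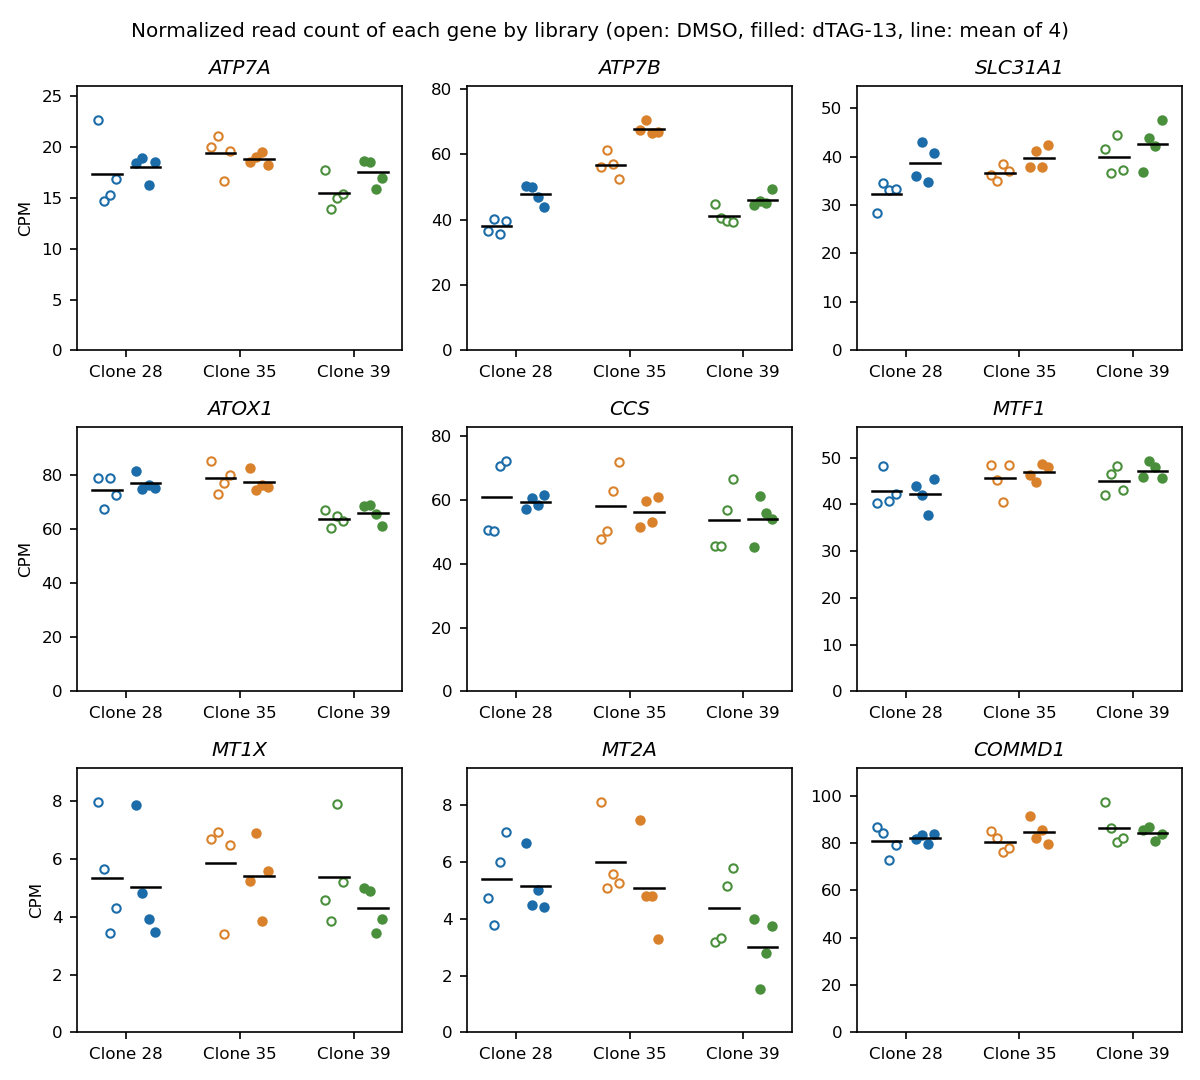
Normalized read counts (CPM, linear axes from 0) of the 9 genes in the 24 libraries, by clone, with open points for DMSO, filled points for dTAG-13 and lines for the mean of 4. ATP7B is higher in Clone 35 than in the other clones in both treatments, and its filled points lie above its open points in Clones 28 and 35.

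The experiment asked whether transcription changes after TRPS1 loss, those of estrogen receptor targets above all, held in 3 separate clones. Among the 9 genes ATP7B stood higher in treated cells, with a log2 difference of 0.25 (standard error 0.042) and a fold of 1.19. This contrast was used to choose the genes, so its values are a description. In Clone 28 ATP7B was at 36.5, 40.2, 35.5 and 39.7 CPM in DMSO replicates 1 to 4 and at 50.2, 49.8, 46.9 and 44 CPM with dTAG-13. In Clone 35 it was at 56, 61.4, 57.1 and 52.5 CPM in DMSO and at 67.5, 70.3, 66.4 and 66.7 CPM with dTAG-13. In Clones 28 and 35 all 4 treated libraries lay above all 4 controls, as did 1.55% of tested genes in Clone 28 and 1.13% in Clone 35. In Clone 39 it was at 44.9, 40.4, 39.5 and 39.4 CPM in DMSO and at 44.6, 45.6, 45 and 49.3 CPM with dTAG-13. There the groups overlapped through replicate 1, the highest control. The dTAG-13 library was the higher of its pair in 11 of 12 pairs, against 1.34% of tested genes that were higher in at least 11.

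SLC31A1, the importer, had the next largest positive difference, of 0.15 (standard error 0.052) with the clones together. In Clone 28 it was at 28.3, 34.6, 33.1 and 33.4 CPM in DMSO and at 36.1, 42.9, 34.7 and 40.7 CPM with dTAG-13. Those ranges barely missed each other, with the highest control at 34.6 CPM and the lowest treated library at 34.7 CPM. In Clone 28 1.55% of tested genes had every treated library above every control. SLC31A1 was higher in 4 of 4 pairs of Clone 28, in 3 of 4 of Clone 35 and in 2 of 4 of Clone 39. By replicate number its mean log2 change was 0.078, 0.27, -0.013 and 0.28 in replicates 1 to 4. The test of a change that differs between numbers did not pass for it (edgeR, adjusted p = 0.465). In Clone 39 its DMSO values ran from 36.5 to 44.4 CPM and treated ones from 36.9 to 47.4.

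The metallothioneins had lower mean values with dTAG-13, within wide errors. MT2A differed by -0.25 (standard error 0.15) and was lower in 9 of 12 pairs, and MT1X differed by -0.18 (standard error 0.15) and was lower in 8 of 12. In Clone 39 MT2A was at 3.19, 3.35, 5.18 and 5.79 CPM in DMSO and at 3.99, 1.54, 2.81 and 3.73 CPM with dTAG-13, ranges that overlap and rest on 6 to 29 reads. The other 5 genes lay close to 0, with differences of 0.058 (ATP7A), 0.03 (MTF1), 0.022 (COMMD1), 0.021 (ATOX1) and -0.033 (CCS), each under 1 standard error. COMMD1 was higher in 9 of 12 pairs, as SLC31A1 was. ATP7A was higher in 8 of 12, ATOX1 in 7, MTF1 in 6 and CCS in 5.

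With the clones together 1 of the 9 genes, ATP7B, passed an adjusted p of 0.1 in edgeR's quasi-likelihood test, beside 0.551% of all tested genes (123 of 22326) and 0.358% called higher. With the pairing of dishes by clone and replicate number as a block the share of all genes rose to 2.33% (521 genes) and ATP7B was still the only one of the 9. Without Clone 28, or without Clone 35, 0 of the 9 passed in the fit without the block. The log2 difference of ATP7B was then 0.22 (standard error 0.05) without Clone 28 and 0.25 (0.058) without Clone 35. None passed within Clone 28, 35 or 39, beside 0.0537% of all genes in Clone 28 and 0% in Clones 35 and 39. At an unadjusted p under 0.05 there were 2 of the 9 in Clone 28, ATP7B and SLC31A1, and 1 each in Clones 35 and 39. Over all genes that level was passed by 1078 in Clone 28, 646 in Clone 35 and 754 in Clone 39, and DESeq2 called 34 genes in Clone 28 and 1 in each of the others. With the block ATP7B also passed within Clone 28, beside 1.18% of all genes. In Clone 39, where its groups overlapped, 1.12% of all genes had every treated library above every control. For SLC31A1 the adjusted p in edgeR was 0.72 in Clone 28 and 0.372 with the clones together. The genes were chosen with the dTAG-13 contrast in view, so all these calls are a description.

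**Figure D2:**
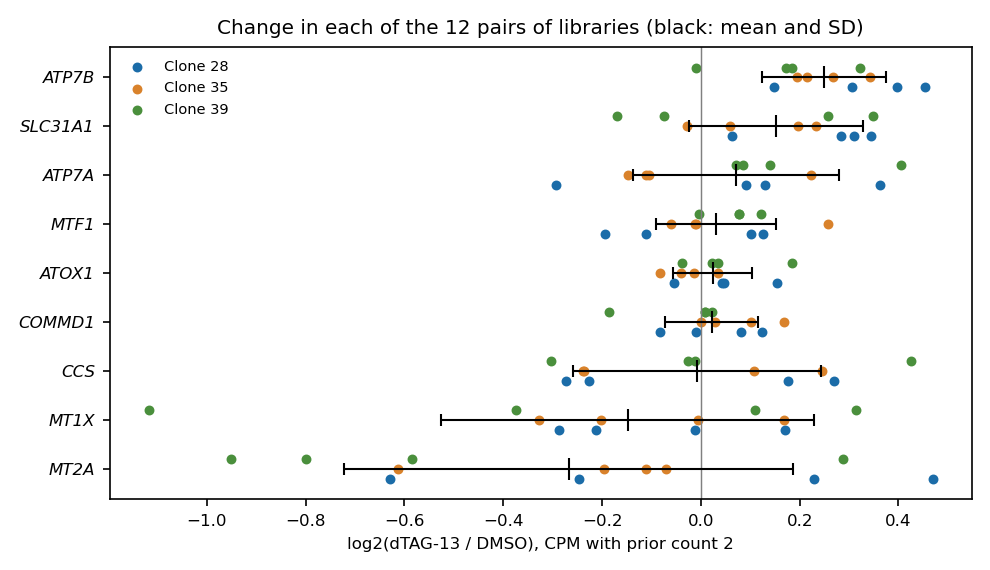
Log2 ratio of dTAG-13 to DMSO in each of the 12 pairs of libraries for the 9 genes, colored by clone, with the mean and SD in black. ATP7B is above 0 in 11 of 12 pairs with a mean of 0.25, and the metallothioneins have the widest spread.

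Whether the response differed between clones was tested separately. For ATP7B the fitted differences were 0.33 (standard error 0.074) in Clone 28, 0.25 (0.067) in Clone 35 and 0.17 (0.075) in Clone 39. The interaction of clone and treatment was not significant for it (edgeR, adjusted p = 1.00), nor for any of the other 8, of which none reached an unadjusted p under 0.05. Over all 22326 genes 0% were called, 407 had an unadjusted p under 0.05, and DESeq2 also called 0. A p above the threshold does not show that the clones responded alike.

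The clones differed at baseline. In the 12 DMSO libraries ATP7B averaged 56.8 ± 3.65 CPM in Clone 35 (SD, n = 4), against 38 ± 2.32 in Clone 28 and 41 ± 2.61 in Clone 39. The lowest Clone 35 library, at 52.5 CPM, stood above the highest of the other clones, at 44.9 CPM, a separation that was not counted over all genes. Clone 35 exceeded Clone 28 by 0.57 on the log2 scale (standard error 0.08, adjusted p = 0.000257), and Clone 39 was below Clone 35 by 0.46 (the difference coded as -0.46, standard error 0.08, adjusted p = 0.000236). Clones 28 and 39 differed by 0.11 (standard error 0.084, adjusted p = 0.435). Over the 3 clones the adjusted p was 2.62e-05. That difference between clones was larger than the change with dTAG-13, and in the treated libraries it was 0.5 between Clones 35 and 28 (standard error 0.069) with an adjusted p over the clones of 8.22e-07. Over 60 tested genes within 5 Mb of ATP7B the median difference between Clones 35 and 28 was 0.021. Of these 2 were called higher and 0 lower, beside 4.69% of all tested genes called. The part of the region in the level of ATP7B was not tested.

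ATOX1, the chaperone that feeds the pumps, was lowest in Clone 39. It averaged 63.7 ± 2.71 CPM there, 74.4 ± 5.61 in Clone 28 and 78.6 ± 5.08 in Clone 35 (SD, n = 4). The highest Clone 39 library at 66.8 CPM lay just under the lowest of the others at 67.2 CPM, a separation that was not counted over all genes. Clone 39 was below Clone 28 by a difference of -0.23 (standard error 0.075, adjusted p = 0.0346) and below Clone 35 by one of -0.30 (0.074, adjusted p = 0.00583). Without replicate 3 of Clone 28 the difference from Clone 28 was -0.20 and no longer passed (adjusted p = 0.103). Over the clones the adjusted p was 0.0122 in DMSO and 0.0145 in the dTAG-13 libraries. Here the surroundings moved too. The median difference between Clones 39 and 28 over 69 genes within 5 Mb was -0.18, with 24 called lower and 7 higher, and the part of the region in the level of ATOX1 was not tested. G3BP1, which overlaps ATOX1 on the opposite strand, did not pass (adjusted p = 0.592), and neither did ENSG00000275765 on the same strand (adjusted p = 0.409).

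SLC31A1 averaged 39.9 ± 3.73 CPM in Clone 39, 36.7 ± 1.47 in Clone 35 and 32.4 ± 2.75 in Clone 28 (SD, n = 4). Clone 39 exceeded Clone 28 by 0.29 (standard error 0.092, adjusted p = 0.0291), and the adjusted p over the clones was 0.0709. This call is the least firm. It was lost with DESeq2 (adjusted p = 0.123), in the dTAG-13 libraries (0.479), without the filter on low counts (0.192) and when any of 5 single libraries was left out, namely replicates 1, 3 and 4 of Clone 28 or replicates 1 and 3 of Clone 39, with an adjusted p of up to 0.189.

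In all, 3 of the 9 genes differed between clones in DMSO, beside 26.5% of all tested genes. Between single clones the shares of all genes called were 4.69% for Clones 35 and 28 (1 of the 9), 24.9% for Clones 39 and 28 (2 of the 9) and 21.5% for Clones 39 and 35 (2 of the 9). The adjusted p of the other 6 was between 0.284 (ATP7A) and 0.922 (MT1X). With the replicate number as a block, 5 of the 9 passed, beside 43% of all genes. The additional genes were ATP7A (adjusted p = 0.0685), at 19.4 ± 1.89 CPM in Clone 35 and 15.5 ± 1.63 in Clone 39, and CCS (adjusted p = 0.0767), at 60.9 ± 12.2 CPM in Clone 28 and 53.7 ± 10.2 in Clone 39. PGK1, whose interval holds nearly all of ATP7A, also differed between clones (adjusted p = 0.0171). In the dTAG-13 libraries 2 of the 9 differed over the clones, ATP7B and ATOX1, beside 29.5% of all genes. MT2A was lower there in Clone 39 than in Clone 28, by a difference of -0.72 (standard error 0.29, adjusted p = 0.0752, beside 28.3% of all genes), and than in Clone 35, by one of -0.69 (0.28, adjusted p = 0.0948, beside 23% of all genes), while over the 3 clones it did not pass (adjusted p = 0.115).

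**Figure D3:**
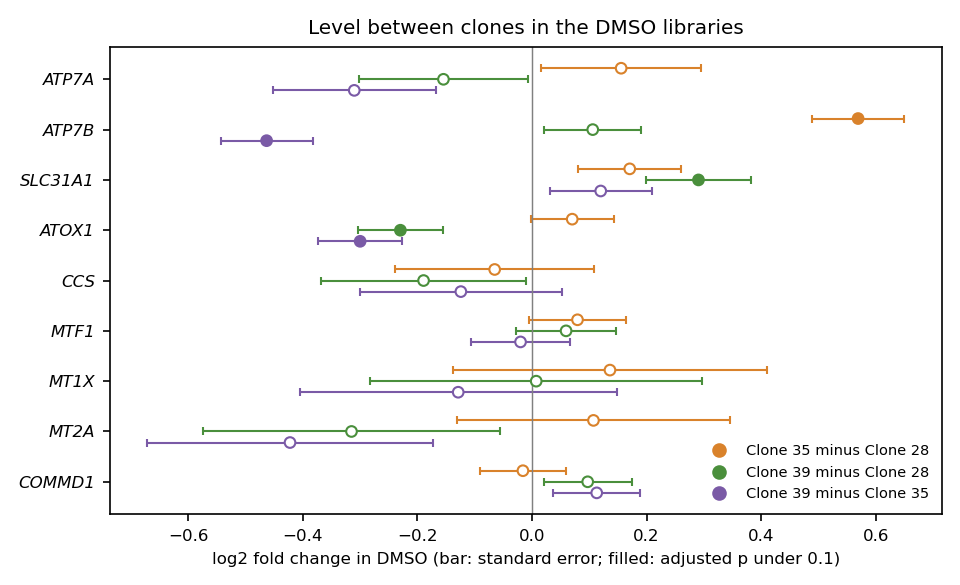
Fitted log2 differences between clones in the 12 DMSO libraries for the 9 genes, with bars of 1 standard error and filled points for an adjusted p under 0.1. ATP7B is 0.57 higher in Clone 35 than in Clone 28, ATOX1 is lower in Clone 39 than in both others, and SLC31A1 is higher in Clone 39 than in Clone 28.

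The replicate numbers are taken to mark separate collections within the day, and the levels of CCS differed between them. In DMSO CCS was at 50.5, 47.9 and 45.7 CPM in replicate 1 of Clones 28, 35 and 39, and at 50.3, 50.4 and 45.6 CPM in replicate 2. It was at 70.8, 62.8 and 56.9 CPM in replicate 3 and at 72.1, 71.9 and 66.7 CPM in replicate 4. Every library of replicates 3 and 4 thus lay above every library of replicates 1 and 2. Such a split was not counted over all tested genes, of which 30.3% differed between numbers in DMSO. Against replicate 1 the fitted difference of CCS was 0.017 for replicate 2 (standard error 0.082), 0.40 for replicate 3 (0.079) and 0.54 for replicate 4 (0.076). The adjusted p of CCS over the numbers was 3.1e-09.

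COMMD1 ran the other way in DMSO. It averaged 89.7 ± 6.54 CPM in replicate 1, 84.3 ± 2.14 in replicate 2, 76.5 ± 3.73 in replicate 3 and 79.8 ± 2.24 in replicate 4 (SD, n = 3 clones). The adjusted p over the numbers was 0.0229 and the differences from replicate 1 were -0.23 (standard error 0.066) and -0.17 (0.064) for replicates 3 and 4. The call was lost with DESeq2 (0.323), with library totals as the only scaling (0.208), without the filter on low counts (0.225), in the dTAG-13 libraries (0.735) and without replicate 1 of Clone 39 in DMSO (0.13). The difference of replicate 4 alone was also lost without replicate 4 of Clone 35 (adjusted p = 0.126) and without replicate 4 of Clone 39 (adjusted p = 0.153). Over the 24 libraries the log2 CPM of CCS and COMMD1 had a Pearson r of -0.72 and a Spearman rho of -0.68, as a description of libraries that share scaling and collection times.

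These were 2 of the 9 genes, beside 30.3% of all tested genes. The numbers also moved genes that mark the cell type. Of the 8 luminal markers 5 differed between numbers in DMSO, and their summed level was 4501 to 5551 CPM in replicate 1, 4592 to 5920 in replicate 2, 4094 to 4603 in replicate 3 and 3606 to 4715 in replicate 4. Library totals overlapped between numbers, with 4185233 to 5192713 reads in replicate 1 and 4972292 to 7106656 in replicate 4. The part of these in the levels of CCS was not tested. Whether a number stands for the same hour in each clone is not stated.

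**Figure D4:**
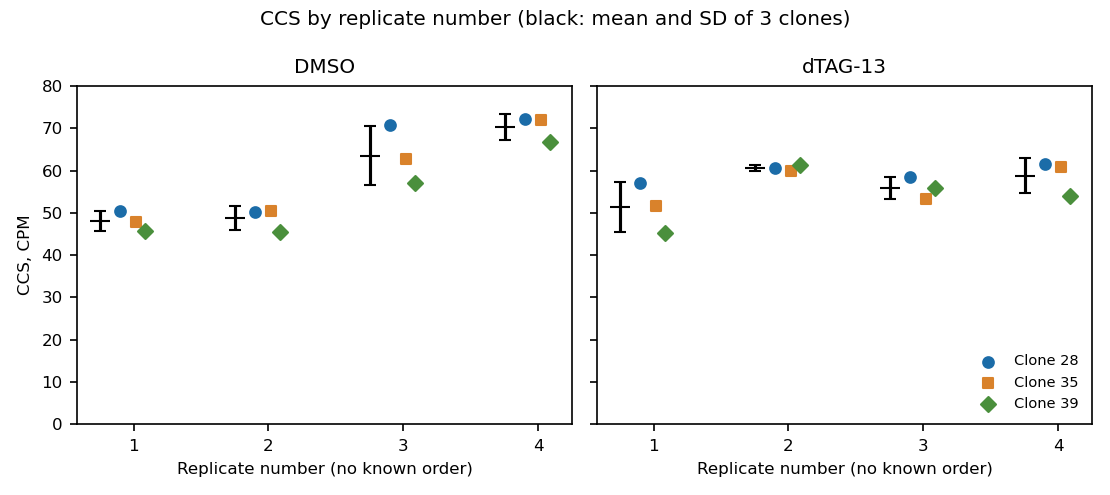
CCS in CPM (axis from 0) by replicate number in DMSO and with dTAG-13, with 1 point per clone and the mean and SD of 3 clones in black. In DMSO replicates 3 and 4 lie above 1 and 2, and with dTAG-13 the 12 values lie between 45.3 and 61.6 CPM.

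With dTAG-13 the contrast between numbers was smaller. CCS averaged 51.3 ± 5.88, 60.6 ± 0.716, 55.9 ± 2.61 and 58.8 ± 4.19 CPM in replicates 1 to 4 (SD, n = 3 clones). Over the numbers its adjusted p was 0.0951 and that of SLC31A1 was 0.0861. These were the 2 of the 9 called in those libraries, beside 20.1% of all genes. The change of CCS with dTAG-13 therefore depended on the number. It was higher in 3 of 3 pairs of replicate 2, by a mean of 0.31 ± 0.097 (SD) on the log2 scale, and in 2 of 3 pairs of replicate 1, by 0.091 ± 0.095. It was lower in 3 of 3 pairs of replicate 3, by a mean of -0.18 ± 0.13, and in 3 of 3 of replicate 4, by -0.26 ± 0.042. The interaction of number and treatment had an adjusted p of 0.000281 and CCS was the 1 gene of the 9 called, beside 1.63% of all tested genes (365). This call held in every alternative run, with an adjusted p of at most 0.0182, reached with DESeq2. With the pairs as a block it was 0.000121, beside 2.09% of all genes.

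SOD1, the enzyme that CCS supplies with copper, had a like order of levels. In DMSO it averaged 40.6 ± 5.44, 39.6 ± 1.78, 48 ± 4.7 and 51.9 ± 0.178 CPM in replicates 1 to 4 (SD, n = 3 clones), with an adjusted p of 0.000368. With dTAG-13 it averaged 44.4 ± 0.572, 48.2 ± 0.678, 45.5 ± 5.96 and 44.9 ± 1.74 CPM, and the interaction had an adjusted p of 0.0647. SOD1 and CCS were the only genes of the 7 copper and zinc lists below with such a call, beside 1.63% of all tested genes. SOD1 was 1 of 9 tested copper enzymes and CCS 1 of 15 copper chaperones. None was called among the 9 tested genes of uptake, 19 of export, 3 metallothioneins, 23 zinc genes and 10 lipoylation genes. Nothing is read from so small a count, and the values of SOD1 with dTAG-13 were added after values were seen. Of the 8 luminal markers 2 had it as well, FOXA1 (adjusted p = 0.000199) and GATA3 (adjusted p = 0.0556), and their part in the values of CCS and SOD1 was not tested. The change of ATP7B did not depend detectably on the number (edgeR, adjusted p = 0.99), with means between 0.22 and 0.27 in the 4 numbers.

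The wider pathway was followed with 7 lists of copper and zinc genes. For dTAG-13 the only gene called in any of them was ATP7B, 1 of 19 tested genes of copper export and trafficking, beside 0.551% of all tested genes, and ATP7B is the gene whose response was known when the genes were chosen. Between clones in DMSO the called shares were 4 of 9 for copper uptake and reduction, 4 of 15 for copper chaperones, 6 of 19 for export, 3 of 8 for copper enzymes, 0 of 2 for metallothioneins, 4 of 22 for zinc transporters with MTF1, and 0 of 10 for lipoylation genes of copper-dependent death, beside 26.5% of all tested genes. The metalloreductase STEAP2 and its relative STEAP1 were highest in Clone 39. STEAP2 was at 48.1 ± 5.74 CPM there against 24.2 ± 3.55 in Clone 28 and 20.2 ± 1.89 in Clone 35 (adjusted p = 8.92e-08). STEAP1 was at 14.4 ± 2.74 CPM in Clone 39 and 6.11 ± 0.703 in Clone 35 (adjusted p = 9.72e-05). SLC11A2, a transporter of divalent metals, was highest in Clone 35 at 99.9 ± 3.67 CPM and lowest in Clone 39 at 75.7 ± 5.11 (adjusted p = 0.00058).

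SCO1 and COX17, which carry copper to cytochrome c oxidase, were lowest in Clone 39. SCO1 was at 24.5 ± 2.13 CPM there and at 42.9 ± 4.64 in Clone 28 (adjusted p = 1.63e-06), and COX17 at 36.8 ± 3.31 and 53.6 ± 6.08 (adjusted p = 0.00023). The acetyl-CoA transporter SLC33A1 was at 61.6 ± 4.47 CPM in Clone 39 and 102 ± 5.39 in Clone 28 (adjusted p = 7.61e-08), and COMMD2 at 31.4 ± 2.73 and 45.1 ± 3.38 (adjusted p = 1.86e-05). Of the copper enzymes, the extracellular superoxide dismutase SOD3 was highest in Clone 39 at 13.3 ± 2.26 CPM against 8.25 ± 0.926 in Clone 28 (adjusted p = 0.0158). PAM, which amidates peptides, was at 128 ± 11.4 CPM in Clone 39 and 115 ± 4.83 in Clone 28 (adjusted p = 0.0536) and the amine oxidase AOC2 at 45.8 ± 3.74 and 37.6 ± 2.37 (adjusted p = 0.0753). Among zinc transporters SLC39A11 was at 234 ± 14.9 CPM in Clone 39 and 157 ± 7.76 in Clone 28 (adjusted p = 3.05e-06), SLC39A8 was highest in Clone 28 at 37.8 ± 1.67 CPM (adjusted p = 0.000768) and SLC39A10 highest in Clone 39 at 68.6 ± 5.39 CPM (adjusted p = 0.0465).

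Several of these genes lie where Clone 39 was lower over a whole stretch. Around SCO1 on chromosome 17, 112 of 136 other tested genes within 5 Mb were called lower in Clone 39 than in Clone 28, with a median difference of -0.88 beside -0.81 for SCO1. On chromosome 3, which carries SLC33A1, COMMD2 and COX17, 557 of 1215 tested genes were called lower and 69 higher. The medians within 5 Mb were -0.66, -0.64 and -0.42, beside -0.74, -0.53 and -0.54 for these genes. Around STEAP2 the median was -0.076 over 62 genes, and around SLC39A11 it was 0.0091 over 142. The part of the regions in the levels was not tested.

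Between replicate numbers in DMSO the called shares were 3 of 9 for uptake, 5 of 15 for chaperones, 5 of 19 for export, 2 of 8 for copper enzymes, 0 of 2 for metallothioneins, 8 of 22 for zinc transporters with MTF1 and 5 of 10 for lipoylation genes, beside 30.3% of all tested genes. The zinc exporter SLC30A1, a known target of MTF1, averaged 41.7 ± 9.85 CPM in replicate 1 and 24.6 ± 6.75 in replicate 4 (SD, n = 3 clones, adjusted p = 1.28e-07), while MTF1 itself did not pass (adjusted p = 0.689). SLC39A12 went from 4.72 ± 0.679 in replicate 1 to 1.11 ± 0.481 in replicate 4 (adjusted p = 2.96e-05). SLC39A10 was at 67.5 ± 8 and 56 ± 7.54 CPM (adjusted p = 0.00232). Of the lipoylation genes LIPT2 was at 21.4 ± 2.81 and 32.3 ± 3.51 CPM (adjusted p = 1.53e-05), DBT at 55.5 ± 2.03 and 74.5 ± 10.7 (adjusted p = 2.18e-05), and FDX1, the ferredoxin needed for copper-dependent death, at 39.4 ± 4.23 and 45.8 ± 4.03 (adjusted p = 0.00644). The mitochondrial chaperone CMC1 was at 83.5 ± 9.11 CPM in replicate 1 and 68.9 ± 8.06 in replicate 3 (adjusted p = 0.00114), and its relative CMC2 was at 90.4 ± 3.72 in replicate 1 and 106 ± 4.16 in replicate 4 (adjusted p = 0.00294).

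COMMD3 differed from COMMD1 in direction, with 17.6 ± 1.9 CPM in replicate 1 and 25.7 ± 2.52 in replicate 3 (adjusted p = 0.00022), while COMMD10 ran as COMMD1 did, with 154 ± 11.4 and 131 ± 1.38 (adjusted p = 0.00113). VPS35L, of the retriever sorting complex, was at 64.3 ± 4.21 in replicate 1 and 54.2 ± 7.12 in replicate 2 (adjusted p = 0.0157). In uptake SLC31A2 was at 18.9 ± 2.74 and 25.4 ± 3.58 CPM in replicates 1 and 3 (adjusted p = 0.0285), and STEAP2 (adjusted p = 0.0532) and CYBRD1 (adjusted p = 0.0986) were lowest in replicate 3. LOXL3, a lysyl oxidase, was at 5.26 ± 1.64 and 8.46 ± 1.18 CPM in replicates 1 and 4 (adjusted p = 0.0649).

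The genes whose log2 CPM was most like that of ATP7B over the 24 libraries were NOL4 (Pearson r = 0.91), CDH10 (0.91), COL4A6 (0.90), DNAJC5B (0.89) and VCAN (0.89), none of which lies on chromosome 13. For the other genes the closest were TRAPPC14 for CCS (r = 0.92), ENSG00000265349 for ATOX1 (0.92), REV3L for COMMD1 (0.86), CEACAM20 for ATP7A (0.83), MAFF for MT2A (0.79), AMN for MTF1 (0.77) and C12orf60 for SLC31A1 (0.75). These likenesses describe libraries that share clones, collection times and scaling. Of the genes that overlap a member or lie within 5 kb and could be tested, none was called for dTAG-13. ALG11, which starts head to head with ATP7B, had a difference of 0.094 (standard error 0.06), and between clones it did not pass (adjusted p = 0.768).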

How the data were processed

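PRO-seq libraries of 24 dishes were analysed, 4 per clone and treatment. The deposited values are whole-number read counts per gene. Per the study's methods and the submitters' processing notes, the authors removed adapters with cutadapt 1.8.1, removed duplicates with fqdedup on the molecular identifiers, discarded ribosomal DNA reads, aligned with Bowtie2 2.4.4 to hg38, sorted with SAMtools 1.9 and took counts per gene with bedtools. The annotation and strand setting are not given in the sources used here. Gene identifiers were named with GENCODE v44, which matched 60463 of 60605.

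The 9 genes and all lists were chosen with earlier results of these data known. Counts were filtered with filterByExpr (minimum count 10), scaled by TMM and tested in edgeR 4.0.16 (R 4.3.3) by the quasi-likelihood F test with Benjamini-Hochberg adjustment over all genes tested, 22326 in 24 libraries and 21254 in the 12 DMSO libraries, at an adjusted p of 0.1. The models were clone plus treatment, the 6 groups, clone in DMSO, clone plus replicate number in DMSO, and clone plus number by treatment. CPM use the same scaling, and log2 CPM a prior count of 2. All 9 genes were named, and of each list at most the 3 with the smallest p for clones and for numbers. The 5 Mb windows and SOD1 under dTAG-13 were added after values were seen.

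Per the labels' treatment protocol, replicates were collected at different times and both treatments simultaneously. That dishes of 1 clone and number were 1 collection was inferred from the numbering. Their deviations from group means correlated by 0.0926 to 0.318 (12 pairs). In DMSO, same-numbered dishes of different clones correlated by 0.135 to 0.352 (12 pairs), so number was also used as a block between clones. On simulated counts 200 genes were changed by 0.5 on the log2 scale. There 15.7% of calls between clones and 19.1% between numbers were false, above the threshold. The treatment fit and both interactions stayed under it. In that setting calls between clones and numbers were thus less certain than their adjusted p. The data held far more called genes in these 2 comparisons, so the false share in them is not known. Counts of replicates differed by more than sampling noise (chi-square per degree of freedom 1.64 to 13.6 within groups). DESeq2 1.42.0, RLE scaling, library totals, other filters, a threshold of 0.05, another quasi-likelihood option chosen after seeing the simulation, and leaving out libraries or clones were alternatives.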

Additional observations from a re-analysis of the deposited data

Results flagged for a closer look

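Of 54 groups of 4 libraries, 2 had a library far from the other 3 by Dixon's test, and chance gives about 1 in 20. MT1X in Clone 35 in DMSO was at 3.4 CPM in replicate 3, with the others between 6.5 and 6.93 CPM. MT2A in the same clone and treatment was at 8.11 CPM in replicate 1, with the others between 5.07 and 5.57 CPM. Both rest on few reads, 22 and 34 in those libraries.

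The change of CCS with dTAG-13 differed between replicate numbers by the test of the interaction (edgeR, adjusted p = 0.000281). It was above 0 in 5 of 6 pairs of replicates 1 and 2 and below 0 in 6 of 6 pairs of replicates 3 and 4.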

How the results depend on the processing

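The higher level of ATP7B with dTAG-13 kept its direction and its call in every alternative except that without Clone 28 or without Clone 35 0 of the 9 genes passed in the fit without the replicate block. With the replicate block ATP7B passed in both. The dTAG-13 contrast was used to choose the genes, so these calls describe the fits and are not independent support. Over the whole table the count for dTAG-13 was 64 at a threshold of 0.05, 197 without the filter on low counts and 521 with the replicate block. It was 1 without Clone 28, 37 without Clone 35 and 37 without Clone 39, and with the block it was 177 without Clone 28, 359 without Clone 35 and 382 without Clone 39. Within Clone 28, 1 of the 9 passed with library totals, with at least 10 counts in every library and with the block, and the whole-table count was 4 (threshold 0.05), 7 (RLE), 22 (library totals), 87 (no filter), 23 (at least 10 counts), 34 (DESeq2) and 263 (block). In Clone 35 it was 4 (no filter), 1 (DESeq2) and 21 (block), and in Clone 39 it was 2, 1 and 16. For the change between clones it was 6 without the filter and 1 with the block.

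Between clones in DMSO the block gave 5 of the 9 genes and 9132 genes in all. Between replicate numbers 1 of the 9 passed with library totals, without the filter and with DESeq2, and 4 passed in all 24 libraries, while the whole-table count was 2365 with DESeq2. For the change between numbers the count was 216 at a threshold of 0.05 and 108 with DESeq2. The cause of these shifts was not tested. No value changed sign past a threshold.

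Leaving out single libraries moved the dTAG-13 count between 66 and 149, that in Clone 28 between 2 and 28 (with 0 to 1 of the 9 genes, the 1 without replicate 1 of Clone 39 in DMSO) and that in Clone 39 between 0 and 1. Between replicate numbers it left 1 to 3 of the 9, beside 5601 to 6291 genes of the whole table, and for the change between numbers 223 to 497 genes. The metallothioneins rest on 6 to 47 reads per library, so changes of their size could be missed, and DESeq2 gave them no adjusted p in the treatment fits.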
